A study of Mus musculus with 145 samples.

Results

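The genes described here are 4 genes of the major histocompatibility complex (MHC) class I pathway, H2-D1, H2-K1, B2m and Tap1, and 3 interferon-induced transmembrane genes, Ifitm1, Ifitm2 and Ifitm3. They were chosen by name, as 7 of the 28692 genes in the files (24597 of which had at least 1 UMI in the cells used), because earlier work on the same counts had shown them at different levels in the cell classes, in the pluripotent lines and in the chemical treatment. Their levels across these classes, lines and treatments are therefore given as a description without a test. Tests are given for the day of culture and for the culture batch, which the choice did not use. Other genes of both pathways were tested too, on lists chosen with earlier results of these data known. A UMI is a molecular barcode, so that 1 UMI stands for 1 captured RNA molecule. Levels are given as CPM, the UMI count of a gene scaled to the total of its library after TMM scaling.

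The study followed mouse spermatogonial stem cells (SSCs), the unipotent stem cells of the male germline, while they turned into germline-derived pluripotent stem cells (gPSCs) in culture. In the original condition (no chemical added), 46 single-cell libraries (modified STRT-seq) covered 10 days from day 0 to day 27 in SSC medium, from cultures that the deposited annotation divides into batches B1 and B2. B1 covered day 0 to day 27 and B2 covered days 12, 14, 16 and 18 only. One gPSC line (gPSC-1) at passages 1 and 15 and an embryonic stem cell (ESC) line, both kept in N2B27 medium with 2i/LIF on feeder cells, gave 1 library each. In a second experiment, SSCs were cultured with 5C (SGC707, vitamin C, EGCG, Daphnetin and TUDCA) or with the DMSO vehicle, and cells were profiled by scTrio-seq2, which reads the RNA and the DNA methylation of the same cell. The RNA side gave 8 samples for 5C (724 cells) and 5 for DMSO (365 cells). All cells came from crosses of C57BL/6 females with DBA/2 males. The SSCs were derived from neonatal males that carried an EGFP transgene, under the Pou5f1 (Oct4) promoter and distal enhancer in the reporter strain, and the ESCs from blastocysts of the Oct4-EGFP cross. Selected colonies from feeder cultures were dissociated and single cells were taken up by mouth pipette, so that the share of a class among the picked cells does not measure its share of the culture.

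MHC class I molecules show peptides from inside the cell at its surface. A heavy chain, such as the classical chains encoded by H2-K1 and H2-D1, pairs with the invariant light chain B2m, after peptides cut by the proteasome have been carried into the endoplasmic reticulum by the Tap1 and Tap2 transporter. Interferon signalling through Jak kinases raises these genes in most somatic cells, with Nlrc5 as a dedicated transactivator, whereas early embryonic cells, ESCs and germ cells are known for low class I levels. The Ifitm proteins are small membrane proteins that hinder the entry of viruses. Ifitm1 and Ifitm3 are also long known as markers of primordial germ cells under the name fragilis, where they are expressed without infection.

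All 7 genes matched windows of 300 bases around RefSeq transcript starts (8 windows, GRCm38.p6). In GENCODE coordinates of the same build, Ifitm2 (chr7:140954837-140955987, minus strand), Ifitm1 (chr7:140967221-140969825, plus strand) and Ifitm3 (chr7:141009586-141010770, minus strand) lie within 55.9 kb of each other. H2-K1 (chr17:33996017-34000347, minus strand), Tap1 (chr17:34187553-34197225, plus strand) and H2-D1 (chr17:35262730-35267499, plus strand) lie in the MHC region, with 1271 kb from the start of H2-K1 to the end of H2-D1. B2m stands alone (chr2:122147686-122153083, plus strand). Because all 7 are known as interferon-responsive, the promoter windows were searched on both strands for 2 patterns. These were the core of the interferon-stimulated response element, GAAANNGAAA, and a shorter form of it, GAANNGAAA. The stretches below are shown because they place the members with a match side by side, 5′ to 3′ on the strand of the gene, with the matching bases in capitals. In H2-K1 and H2-D1 the match is on the opposite strand, so that the capitals read as its reverse complement.
B2m: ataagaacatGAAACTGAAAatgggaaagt
Ifitm2: ccaccaacagGAAAAGGAAAttgctagaga
Ifitm3: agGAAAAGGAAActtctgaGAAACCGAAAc
H2-K1: catctccacagTTTCACTTCtgcacctaac
H2-D1: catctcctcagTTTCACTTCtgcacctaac
The B2m stretch lies at chr2:122147538-122147567, that of Ifitm2 at chr7:140955988-140956017, that of Ifitm3 at chr7:141010715-141010744, where it begins at the first base of the RefSeq transcript, that of H2-K1 at chr17:34000419-34000448 and that of H2-D1 at chr17:35262933-35262962. The letters GAAANNGAAA occurred in 3.44% of all 32851 windows and the shorter form in 7.52%. The windows of B2m, Ifitm3, H2-K1 and H2-D1 also held a match to the NF-kB consensus, found in 8.46% of windows, and that of Ifitm3 a match to TTCNNNGAA (the interferon-gamma activated site), found in 8.30%, which overlaps the second capital run above. The windows of Ifitm1 and Tap1 held none of these letters. The stretches of H2-K1 and H2-D1 are near-identical, and the 2 genes are paralogs. Their reads, and those from the C57BL/6 and DBA/2 forms of each, were assigned with the C57BL/6 genome, so the split of counts between H2-K1 and H2-D1 is uncertain.

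The original-condition libraries held 4339 annotated cells with 15975410 to 34609591 UMIs each, the lines 125 cells with 10833720 to 14807169, and the scTrio-seq2 samples 3889964 to 10724925. Counts were summed over the cells of each class in each library, where a library held at least 5 of them. This left 36 libraries for SSC1-4 (the 4 SSC clusters merged), 3 for the early-pluripotent class, 7 for RPG1 (RPG, reprogramming clusters on the path to pluripotency), 8 for RPG3, 3 for RPG2 and 2 for RPG4, 5 for the fibroblast, 6 for the meiotic and 12 for the neural class. The classes are the study's own clusters of the same transcriptomes. The 8 SSC markers summed to 1418 to 2592 CPM in SSC1-4 and to 327 to 689 CPM in RPG3, and the 8 pluripotency markers to 154 to 452 CPM and 2134 to 3225 CPM. The cells called neural and meiotic kept SSC marker sums of 1057 to 1978 and 1558 to 1849 CPM. Libraries of a group are not stated to be separate cultures, so the spread between them may be technical. In sums over cells, fewer cells with a transcript and less of it per cell cannot be told apart, which is why shares of cells are given below.

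H2-D1 and B2m were lowest in RPG2 and RPG3, and the lowest libraries of SSC1-4, 1 library of 6 cells aside, stood above the highest RPG3 library. H2-D1 was at 31.997 CPM in the lowest SSC1-4 library, with a median of 321 and a highest value of 486 (mean 315 ± 94.2, SD, n = 36). That lowest library (day 18, replicate 4) was a sum of 6 cells, and the next lowest SSC1-4 library was at 174 CPM. In RPG2 the 3 libraries were at 19.2, 38.4 and 21.04 CPM. In RPG3 the lowest, median and highest of 8 libraries were 21.2, 55.1 and 116 CPM (mean 55.8 ± 33.7). On the log2 scale the fitted difference of H2-D1 from SSC1-4 was -3.58 (SE 0.41) in RPG2 and -2.48 (SE 0.24) in RPG3. SE here and below is the absolute difference over the square root of F, the statistic of the edgeR test. For the members in class and treatment contrasts, no test is read from it. All 3 RPG2 libraries were of batch B2, where RPG3 was at 23.02 ± 1.98 CPM (n = 3) and RPG2 at 26.2 ± 10.6 CPM, and with batch as a covariate the RPG2 difference was -2.88. RPG1, the first of the 4 clusters, still had H2-D1 at 120.1, 271 and 432 CPM (lowest, median and highest of 7). Without the 6-cell library, 2 of these RPG1 libraries (120.1 and 127 CPM, both of batch B2) lay below the lowest of SSC1-4. RPG4 lay between, at 136 and 124 CPM in its 2 libraries, both of day 20.

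B2m, the light chain that every class I heavy chain needs, was low in the same classes. It was at 105, 279.5 and 376 CPM in SSC1-4 (lowest, median and highest), at 41.8, 44.6 and 46.1 CPM in the 3 RPG2 libraries and at 24.1, 37.7 and 85.6 CPM in RPG3. No RPG2 or RPG3 library reached the lowest SSC1-4 library. The difference from SSC1-4 was -2.63 (SE 0.23) in RPG2 and -2.68 (SE 0.14) in RPG3 on the log2 scale. RPG4 was at 112 and 145 CPM.

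H2-K1 moved less than H2-D1. SSC1-4 had 100.9, 217 and 315 CPM, RPG2 88.0, 46.5 and 83.6 CPM in its 3 libraries, and RPG3 47.3, 91.9 and 129 CPM. The log2 difference was -1.53 (SE 0.22) in RPG2 and -1.14 (SE 0.14) in RPG3, and the highest RPG3 library lay above the lowest SSC1-4 library, which is the sum of 6 cells, but below the next lowest (146 CPM). In RPG4, H2-K1 was at 335 and 258 CPM, above the median of SSC1-4 (0.49, SE 0.22), while H2-D1 was below it in the same 2 libraries (-1.27, SE 0.41).

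Tap1, the transporter subunit, was a low-count gene in SSC1-4 and the RPG clusters. It ranged from 0 to 36.9 CPM in SSC1-4 (median 9.08), was at 1.11, 1.88 and 1.29 CPM in RPG2, and had 1.72, 4.61 and 8.67 CPM in RPG3. The groups of RPG3 and SSC1-4 overlapped. In RPG4, Tap1 was at 9.57 and 11.5 CPM, above the SSC1-4 median (0.15, SE 0.67). The log2 difference was -2.72 (SE 0.74) in RPG2 and -1.10 (SE 0.40) in RPG3.

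The Ifitm genes went the other way. Ifitm3 was at 0 CPM in the lowest SSC1-4 library, with a median of 5.64 and a highest value of 36.8 CPM. It reached 28.7, 36.3 and 98.1 CPM in RPG1 (lowest, median and highest of 7), 428, 382 and 516 CPM in the 3 RPG2 libraries, 422, 727 and 780.0 CPM in RPG3, and 112 and 114 CPM in RPG4. Each RPG2, RPG3 and RPG4 library was above every SSC1-4 library, and RPG1 overlapped the upper end of SSC1-4. The log2 differences from RPG1 to RPG4 were 2.65 (SE 0.42), 5.55 (SE 0.47), 6.18 (SE 0.40) and 3.58 (SE 0.62). In the 2 libraries that held both RPG1 and SSC1-4 cells, Ifitm3 was at 34.7 CPM in RPG1 and 25.1 CPM in SSC1-4 (day 20) and at 36.3 and 33.4 CPM (day 23). With the library as a block the RPG1 difference was 0.29, that of RPG2 4.37 and that of RPG3 4.64, and SSC1-4 sums in the libraries shared with these 3 classes were at 17.4 to 33.4 CPM, above the SSC1-4 median.

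Ifitm2 followed the same order with a higher level in SSC1-4, at 3.64, 43.8 and 134 CPM there, 134, 164 and 366 CPM in RPG1, 499.6, 393 and 785 CPM in RPG2, 703, 829.5 and 1031 CPM in RPG3 and 561 and 476 CPM in RPG4. Its log2 differences were 2.05 (SE 0.35), 3.43 (SE 0.43), 4.04 (SE 0.32) and 3.31 (SE 0.51) in RPG1 to RPG4. Within the shared libraries Ifitm2 was at 134 and 163 CPM in RPG1 and at 100.3 and 102 CPM in SSC1-4, and the blocked differences were 0.55 in RPG1, 2.64 in RPG2 and 3.02 in RPG3. Ifitm1 behaved differently. It was at 62.8, 194 and 342 CPM in SSC1-4, at 117, 151 and 421 CPM in RPG1 and stood at 570.1, 877 and 741 CPM in RPG2 and at 331, 565 and 814 CPM in RPG3. In RPG4 it was back at 174 and 113 CPM (log2 difference -0.53, SE 0.41). The plot of levels by class shows the class I genes and the Ifitm genes as opposite profiles over the RPG clusters, with Ifitm1, H2-K1 and Tap1 parting from their groups in RPG4.

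**Figure D1:**
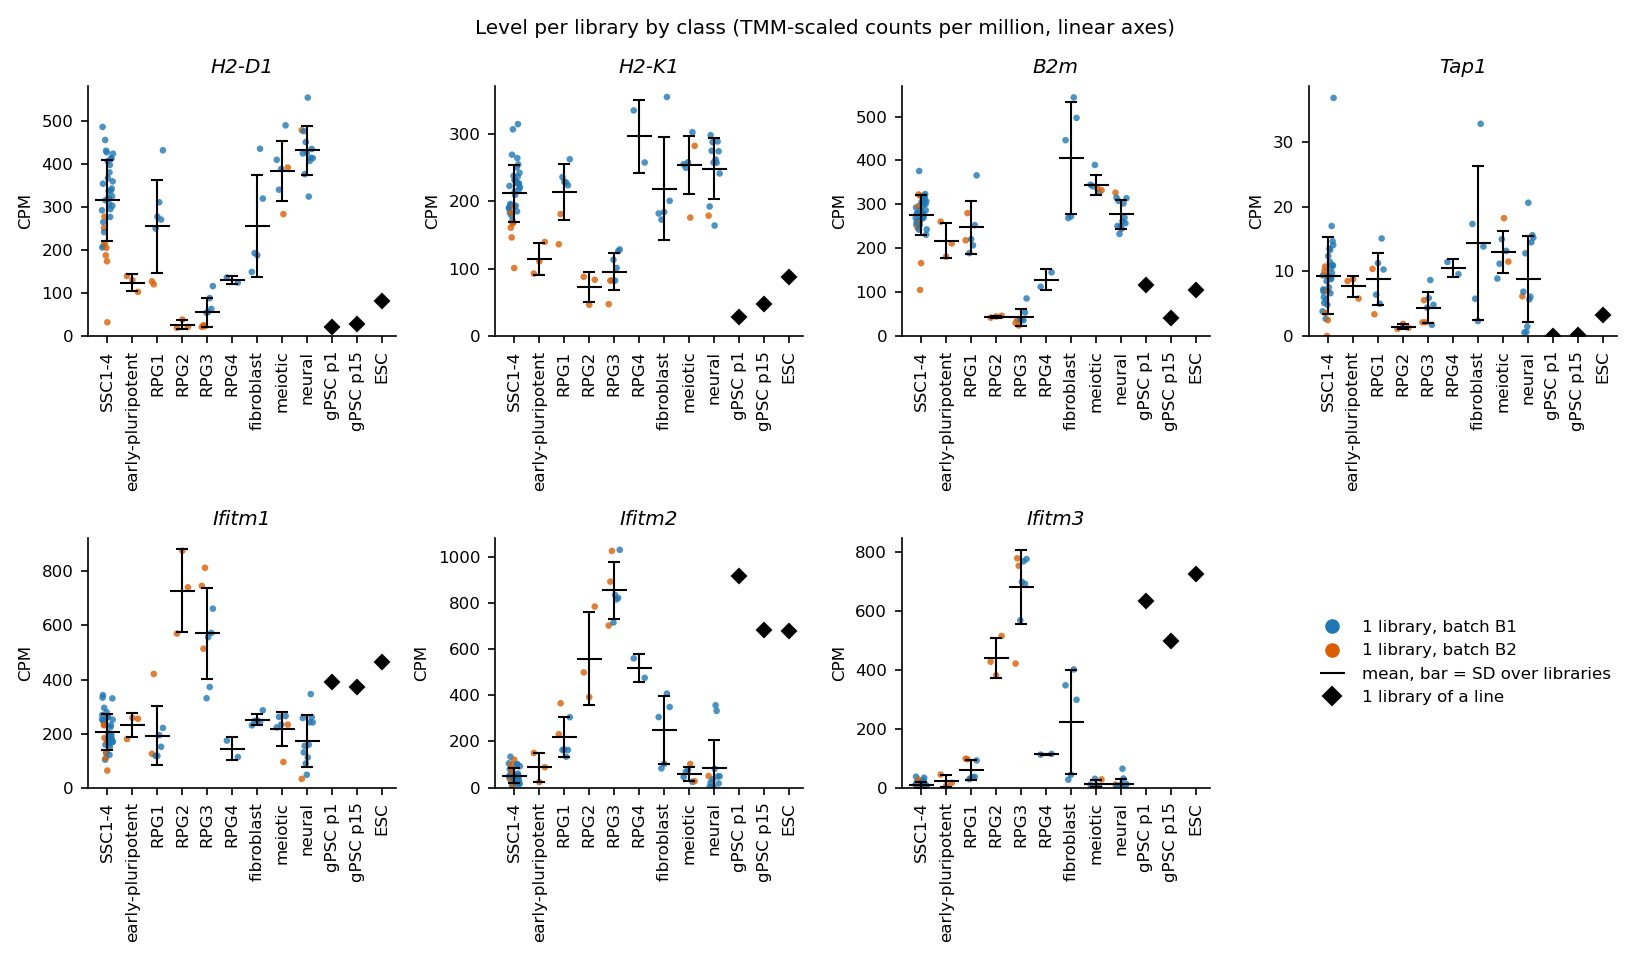
Level of each of the 7 genes in CPM (linear axes from 0) by class. Each point is the sum of one class in 1 library, coloured by culture batch, horizontal marks and bars give the mean and SD over libraries, and black diamonds are the single libraries of gPSC p1, gPSC p15 and ESC. H2-D1 sits low in RPG2, RPG3 and the lines, where Ifitm2 and Ifitm3 sit high. B2m sits low in RPG2, RPG3 and gPSC p15, and higher in gPSC p1 (116 CPM) and ESC (106 CPM).

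In the ordered class means, few neighbours were further apart than their spread (mean ± SD). H2-D1 fell in the order neural, meiotic, SSC1-4, fibroblast and RPG1, each of which overlapped its neighbour in that order, then RPG4 and early-pluripotent, then RPG3 and RPG2, with gaps between these 3 sets. For B2m the gaps lay between meiotic and neural, between early-pluripotent and RPG4 and between RPG4 and RPG2, and RPG2 and RPG3 did not differ beyond their spread. H2-K1 had 1 gap, between SSC1-4 and early-pluripotent, and Tap1 had 1, between RPG3 and RPG2. Ifitm1 had 1 gap, between RPG3 and the fibroblast class, and Ifitm2 had 1, between RPG4 and the fibroblast class. Ifitm3 had gaps between RPG3 and RPG2 and between RPG4 and RPG1. Classes differ in batch, and within B2 gaps closed for 4 genes. There H2-D1 was at 123.6 ± 4.95 CPM in RPG1 (n = 2) and 124 ± 19.2 CPM in the early-pluripotent class, Ifitm3 was at 652 ± 199.9 CPM in RPG3 and 442 ± 67.9 CPM in RPG2 (428 and 422 CPM for RPG2 and RPG3 in the 1 library with both), Tap1 at 3.27 ± 1.98 and 1.43 ± 0.40 CPM, and H2-K1 at 159.9 ± 29.9 CPM in SSC1-4 and 114 ± 23.7 CPM in the early-pluripotent class.

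Past the call rule were 2 of the 7 members in RPG1, all 7 in both RPG2 and RPG3, and 4 in RPG4 (edgeR quasi-likelihood test, Benjamini-Hochberg adjusted p below 0.05 and a fold change past 0.5 on the natural-log scale). Of the 20030 genes tested, the rule called 3.78% in the RPG1 contrast, 25.8% in that of RPG4, and 32% and 46.9% in those of RPG2 and RPG3. Nothing is read from the members' counts, because the members were chosen on these classes. In the other contrasts the rule took 2 members in the fibroblast class (5.33% of genes), 2 in the early-pluripotent class (1.24%, both lower, where 0.889% of genes were called higher and 0.349% lower), 0 in the meiotic class (1.38%) and 0 in the neural class (7.36%, with 4.5% higher and 2.87% lower).

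In the 4 libraries that held SSC1-4 cells and RPG2 or RPG3 cells, the members had the directions of the class means within the library, except Tap1 in 1 of them (8.67 CPM in RPG3 and 6.63 CPM in SSC1-4, day 20). The 2 with RPG3 cells are also the 2 that held RPG1 cells, given above. In the day 20 library with 10 RPG3 and 26 SSC1-4 cells, H2-D1 was at 88.2 CPM in RPG3 and 398 CPM in SSC1-4, B2m at 35.8 and 269.7 CPM, and Ifitm3 at 769.6 and 25.1 CPM. In the day 23 library with 35 RPG3 and 20 SSC1-4 cells, H2-D1 was at 63.1 and 295 CPM, B2m at 53.7 and 319 CPM, and Ifitm3 at 693 and 33.4 CPM. In the 2 day 14 libraries with RPG2 and SSC1-4 cells, H2-D1 was at 38.4 and 21.04 CPM in RPG2 and at 278 and 216 CPM in SSC1-4. RPG3 sums carried less feeder fibroblast RNA than SSC1-4 (14 markers, 12.5 to 47.7 CPM against 15.9985 to 187 CPM). The 7 immune markers summed to 32.2 to 126 CPM in RPG3 and 4.82 to 69.0 CPM in SSC1-4, and 1 gene, Laptm5, gave 65.8 CPM of the RPG3 mean, with 9.19 CPM for the other 6 together.

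The early-pluripotent class, which branches from the SSCs, had H2-D1 below the SSC1-4 median, and its Ifitm3 differed between libraries. H2-D1 was at 139.6, 129.9 and 103 CPM in its 3 libraries and H2-K1 at 92.8, 111 and 139.7 CPM, with log2 differences of -1.37 (SE 0.34) and -0.91 (SE 0.21). B2m stayed at 261, 181 and 211 CPM, inside the SSC1-4 range, and Ifitm3 was at 44.3, 6.69 and 15.8 CPM. The first of these, above every SSC1-4 library, held nearly all cells of cluster Early-pluripotency 2, so cluster and library cannot be told apart. In that cluster 96.1% of 77 cells as deposited had an Ifitm3 UMI, against 55.5% of 119 cells of Early-pluripotency 1 (median depths 283189 and 287717 UMIs). All 3 libraries were of batch B2, where SSC1-4 had H2-D1 at 192 ± 79.1 CPM (n = 7) and H2-K1 at 159.9 ± 29.9 CPM, and with batch as a covariate the log2 differences were -0.66 and -0.50. In the 2 of them that also held at least 5 SSC1-4 cells, the H2-D1 difference within the library was 0.14 on the log2 scale, the opposite sign (-0.37 without the block), and 1 of these is the library whose 6 SSC1-4 cells were the lowest of all.

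Fibroblast sums had higher mean B2m, Ifitm2 and Ifitm3 than SSC1-4, while mean H2-D1 (257 ± 119 CPM) was lower and H2-K1 was at 219 ± 76.7 CPM, against 212 ± 42.6 CPM in SSC1-4. The 5 libraries had B2m at 446, 269, 273, 544 and 497 CPM and Ifitm3 at 348, 26.8, 43.7, 402 and 299 CPM, while the 14 feeder fibroblast markers summed to 918, 373, 445, 2617 and 1134 CPM in the same order. The 2 libraries with the lowest fibroblast marker sums, both of day 14, had the lowest Ifitm3 and B2m. The fibroblast class also kept SSC marker sums of 1306 to 1727 CPM, a sum that lies partly inside the SSC1-4 range. The part of feeder RNA in the Ifitm and class I levels of this class was not tested. The split of the class into its 2 clusters was wide. Fibroblast 2 had B2m at 1350 ± 745 CPM, Tap1 at 58.3 ± 21.7 CPM and Ifitm3 at 1327 ± 798 CPM (SD, n = 3), and Fibroblast 1 had 274 ± 9.31, 5.57 ± 2.91 and 63.2 ± 44.7 CPM (n = 4).

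The neural clusters divided as well. Neural 1 had H2-D1 at 451 ± 48.7 CPM, Ifitm2 at 37.6 ± 25.01 CPM and Ifitm3 at 5.51 ± 4.77 CPM (n = 8). Neural 3 had H2-D1 at 125 and 127 CPM, Ifitm2 at 760.0 and 1035 CPM and Ifitm3 at 136 and 173 CPM in its 2 libraries. In the sums of the whole neural class, feeder fibroblast markers were at 626 and 423 CPM in day 27, replicates 1 and 2, where Ifitm2 was at 357 and 333 CPM. In the other 10 neural libraries they were at 14.4 to 194 CPM, with Ifitm2 at 1.35 to 81.5 CPM. The part of feeder RNA in these levels was not tested. B2m in Neural 3 was at 274 ± 20.4 CPM (n = 2), inside the range of SSC1-4. Among the SSC clusters, mean H2-D1 went from 276 ± 85.1 CPM in SSC2 (n = 23) to 359 ± 56.2 CPM in SSC4 (n = 16). Tap1 was at 6.25 ± 3.73 CPM in SSC2 and 13.1 ± 5.06 CPM in SSC4, whose ranges overlapped.

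The pluripotent lines had 1 library each, so their levels carry counting error only (exact 95% Poisson intervals) and no test between lines was possible. H2-D1 was at 21.9 CPM (267 UMIs, interval 19.4 to 24.7) in gPSC p1, 27.1 CPM (285 UMIs, 24.0 to 30.4) in gPSC p15 and 81.5 CPM (1107 UMIs, 76.8 to 86.5) in ESC. H2-K1 was at 28.02, 47.1 and 88.4 CPM. B2m was at 116 CPM in gPSC p1, 40.6 CPM in gPSC p15 and 106 CPM in ESC. Tap1 had 0 UMIs in gPSC p1, with a Poisson interval up to 0.303 CPM (the limit of 3 counts is 0.247 CPM), 1 UMI in gPSC p15 (0.0951 CPM, interval 0.00241 to 0.530) and 45 UMIs in ESC (3.31 CPM, interval 2.42 to 4.43). Ifitm1 was at 392, 370.4 and 465 CPM, Ifitm2 at 919, 682 and 680.0 CPM and Ifitm3 at 634, 499 and 728 CPM, in the same order. All 3 lines lay within the joint range of the RPG2 and RPG3 libraries for H2-D1, Ifitm1, Ifitm2 and Ifitm3. B2m in gPSC p1 and ESC was above the highest of those libraries (85.6 CPM), H2-K1 in gPSC p1 below the lowest (46.5 CPM), and Tap1 in both gPSC libraries below the lowest (1.11 CPM). Feeder markers were at 6.57, 15.9 and 10.5 CPM in the lines, with 7, 7 and 11 of the 14 at 0 UMIs.

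Cells differed in depth, so shares of cells with a UMI were taken after thinning each cell to 50000 UMIs, which left out 165 SSC1-4 and 7 RPG3 cells. These are pooled cells of a class, and the intervals (exact binomial, 95%) cover counting error only. H2-D1 was found in 99.0% of 2100 SSC1-4 cells (98.4 to 99.3), in 65.0% of 254 RPG3 cells (58.7 to 70.8) and in 30.4% of 46 gPSC p1 cells (17.7 to 45.8). As deposited, with median depths of 248474, 285699 and 283965 UMIs, the shares were 99.3%, 92.3% and 41.7%. B2m was found in 99.1% of SSC1-4 and 61.0% of RPG3 cells after thinning. Ifitm3 was found in 15.5% of SSC1-4 cells (13.95 to 17.1), 43.8% of early-pluripotent cells, 84.3% of RPG1 cells (79.8 to 88.1) and 254 of 254 RPG3 cells (98.6 to 100). The SSC1-4 cells are pooled over all libraries, and the shares were not compared within libraries.

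H2-D1 and Ifitm3 were read together in the same cells. In RPG1, 80.8% of 312 cells had both, 15.7% H2-D1 only and 3.53% Ifitm3 only. In SSC1-4, 83.7% had H2-D1 only and 0.238% (5 cells) Ifitm3 only. In RPG3, 65.0% had both, 35.04% Ifitm3 only (29.2 to 41.3) and 0 of 254 H2-D1 only, which allows up to 1.44% (upper bound of the exact interval). Of the gPSC p1 cells 69.6% had Ifitm3 only, of gPSC p15 45.2% and of ESC 25.6%. At the H2-D1 levels of SSC1-4 and RPG1 nearly every cell has a UMI at this depth, so these shares do not show a moderate fall.

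**Figure D2:**
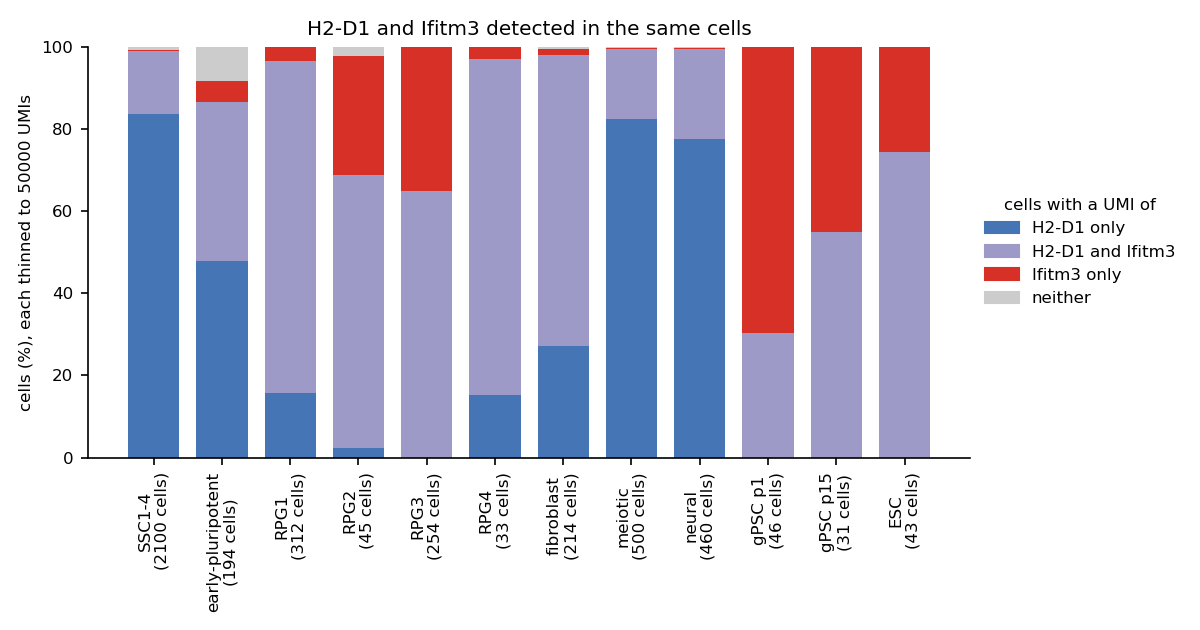
Share of cells (%) of each class or line with at least 1 UMI of H2-D1 only, of H2-D1 and Ifitm3, of Ifitm3 only or of neither, after each cell was thinned to 50000 UMIs. Ifitm3-only cells make up 35.04% of RPG3 and 69.6% of gPSC p1, and H2-D1-only cells 83.7% of SSC1-4.

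The genes whose mean levels over the 9 classes and 3 lines were most like those of H2-D1, B2m and Ifitm3 were looked up among 12421 genes with at least 10 CPM in 1 of the 12 points (Pearson r of log2(CPM + 1), a description, since the classes of a library share its plate and depth). For H2-D1 these were Gm6297 (r = 0.97), Slc30a7 (0.97), a zinc transporter, Fam183b (0.97), Ccl25 (0.96), a chemokine, and Pbx4 (0.96), a homeobox gene. For B2m they were Fam13b (0.98), Snai1 (0.98), a transcription repressor of epithelial-mesenchymal transition, Tasp1 (0.97), Cpt1c (0.96) and Gas8 (0.96). For Ifitm3 they were Tmsb4x (0.98), which encodes an actin-binding thymosin, Ak1 (0.97), Gstm2 (0.97), Htra1 (0.97) and H2afj (0.96). Tmsb4x went from 31.9 CPM in SSC1-4 to 575 in RPG2, 877 in RPG3 and 670.2 in ESC. Among the members, r with Ifitm3 was 0.98 for Ifitm2, 0.78 for Ifitm1 and -0.85 for H2-D1, and r with H2-D1 was 0.91 for H2-K1, 0.87 for B2m and 0.88 for Tap1.

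The rest of the class I and interferon pathway was read from 6 lists of 75 genes, of which 72 were in the files and 70 were tested in the class contrasts. The lists were chosen with earlier results of these data known, and the classes are clusters of the same counts. The p-values between classes given below are therefore not an independent test. In RPG3, 10 of the 70 were higher and 35 lower, against 19.4% and 27.5% of all genes called higher and lower, with a list median of -1.18 on the log2 scale against -0.25 for all genes. In RPG2, 7 were higher and 25 lower (14.8% and 17.2% of all genes), with medians of -0.88 and -0.52. In RPG4, 4 were higher and 31 lower (11.7% and 14% of all genes), with medians of -1.86 and -0.54. In RPG1, 0 were higher and 8 lower (2.23% and 1.55% of all genes), with medians of -0.34 and -0.05. Over the libraries shared with SSC1-4, with the library as a block, 7 list genes were higher and 19 lower in RPG3 (of 56 tested), 7 and 17 in RPG2 (of 61) and 0 and 0 in RPG1 (of 59). Over all genes that fit called 1914 higher and 1555 lower of 13059 in RPG3, 1598 and 1504 of 13912 in RPG2, and only 4 and 0 of 13857 in RPG1. The 8 lower in RPG1 became 4 without day 18, replicate 3, or without day 20, replicate 8, and 5 without day 18, replicate 5, or day 20, replicate 1. The 31 lower in RPG4 became 19 without day 20, replicate 1, and 21 without replicate 2 (list median -2.94). The median of all genes below 0 in RPG2 to RPG4 means that a difference of about that size is the centre of the table.

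Among the 12 genes of peptide supply and loading, 7 fell and 1 rose in RPG3, where 27.5% of all genes were called lower and 19.4% higher. The aminopeptidase Erap1, which trims peptides, fell most, from 70.1 ± 21.3 CPM in SSC1-4 (n = 36) to 8.47 ± 6.67 CPM (n = 8), a log2 difference of -3.16 (SE 0.27, edgeR adjusted p = 1.67e-18). The tapasin-like Tapbpl fell by 2.23 (SE 0.40, edgeR adjusted p = 1.76e-06), and the immunoproteasome subunit Psmb9 from 123 ± 38.0 to 28.4 ± 18.98 CPM (-2.10, SE 0.25, edgeR adjusted p = 1.26e-11). Tap2, the partner of Tap1, fell by 2.07 (SE 0.40). The chaperone calnexin (Canx) was the gene that rose, by 0.91 (SE 0.10). In RPG2, Tap2 (-4.63, SE 0.83), Psmb9 (-3.63, SE 0.46) and Psmb8 (-3.38, SE 0.49) were lower and Canx (0.87, SE 0.14) again higher. In RPG1 the list had 2 genes lower, Tapbpl (-1.42, SE 0.40) and Erap1 (-1.30, SE 0.24), where 1.55% of all genes were called lower. The fitted differences of H2-D1, H2-K1 and B2m in RPG1 were -0.31 (SE 0.21), 0.01 (SE 0.13) and -0.16 (SE 0.13).

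Of 10 other heavy-chain genes tested, 4 were lower and 1 higher in RPG3, where 27.5% of all genes were called lower and 19.4% higher. The list median was -0.40 against -0.25 for all genes. H2-M3, a non-classical chain that presents formylated peptides, fell from 77.8 ± 17.2 to 8.94 ± 5.09 CPM (-3.13, SE 0.21, edgeR adjusted p = 1.91e-23). H2-Q1 fell from a low level (1.09 ± 1.21 to 0.186 ± 0.270 CPM, edgeR adjusted p = 0.0159). H2-Q6 (-1.91, SE 0.59) and H2-Q7 (-2.49, SE 0.37) were the other 2 that fell. H2-T3, the thymus leukaemia antigen, rose from 0.297 ± 0.640 to 5.46 ± 4.74 CPM (4.05, SE 0.77, edgeR adjusted p = 5.44e-06), but from 0 to 11.01 CPM among RPG3 libraries. In the 2 libraries that held both classes, with the library as a block, H2-T3 had a difference of 0.92 (edgeR adjusted p = 0.883). Some heavy chains, such as those of the H2-Q genes, resemble one another in sequence, and reads may be split between them.

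Of 12 regulators, 6 were lower and 2 higher in RPG3 (27.5% and 19.4% of all genes). Irf2, a regulator of interferon responses, fell from 16.5 ± 9.46 to 0.747 ± 0.448 CPM (-4.45, SE 0.56, edgeR adjusted p = 8.32e-11). The class I transactivator Nlrc5 fell from 3.38 ± 2.14 to 0.677 ± 0.801 CPM (-2.26, SE 0.66, edgeR adjusted p = 0.00274). Irf9 (1.24, SE 0.31) and Nfkb1 (0.95, SE 0.39) were the 2 that rose. Of 7 receptors and kinases, 5 were lower and 0 higher, beside the same shares of all genes. Jak1 fell from 211 ± 42.5 to 42.4 ± 10.5 CPM (-2.32, SE 0.14, edgeR adjusted p = 3.22e-27), Jak2 by 1.91 (SE 0.49) and Ifngr1, a chain of the interferon-gamma receptor, by 1.47 (SE 0.29). Within the 2 shared libraries Jak2 had the opposite sign (0.16, edgeR adjusted p = 0.958), and Nlrc5, Ifngr1 and Tapbpl kept their direction but not their call.

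Of 25 interferon-stimulated genes, 12 were lower and 5 higher in RPG3 (27.5% and 19.4% of all genes), with a median of -1.38. Gbp3, a guanylate-binding protein of the interferon-gamma response, fell from 53.0 ± 22.3 to 2.15 ± 1.98 CPM (-4.80, SE 0.40, edgeR adjusted p = 8.11e-19). Ifit3 was called lower on 311 UMIs over the SSC1-4 libraries and 1 UMI over those of RPG3, and is near the limit of counting in both. Ddx58, which encodes the RNA sensor RIG-I, rose from 7.72 ± 12.7 to 118 ± 53.7 CPM (4.15, SE 0.31, edgeR adjusted p = 3.93e-21), and Ly6e, a membrane protein gene of pluripotent and immune cells, rose by 2.91 (SE 0.17). Of the 4 other Ifitm genes, Ifitm7 rose from 0.222 ± 0.594 to 6.41 ± 5.67 CPM (4.68, SE 0.75, edgeR adjusted p = 1.03e-07), Ifitm10, which lies apart from the family's cluster, was lower (2.704 ± 3.13 to 0.368 ± 0.332 CPM, edgeR adjusted p = 0.00338), and Ifitm5 and Ifitm6 were not called. All 5 lists other than the Ifitm genes had a median below that of all genes in RPG3 (-0.25), with the heavy chains nearest to it (-0.40).

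**Figure D3:**
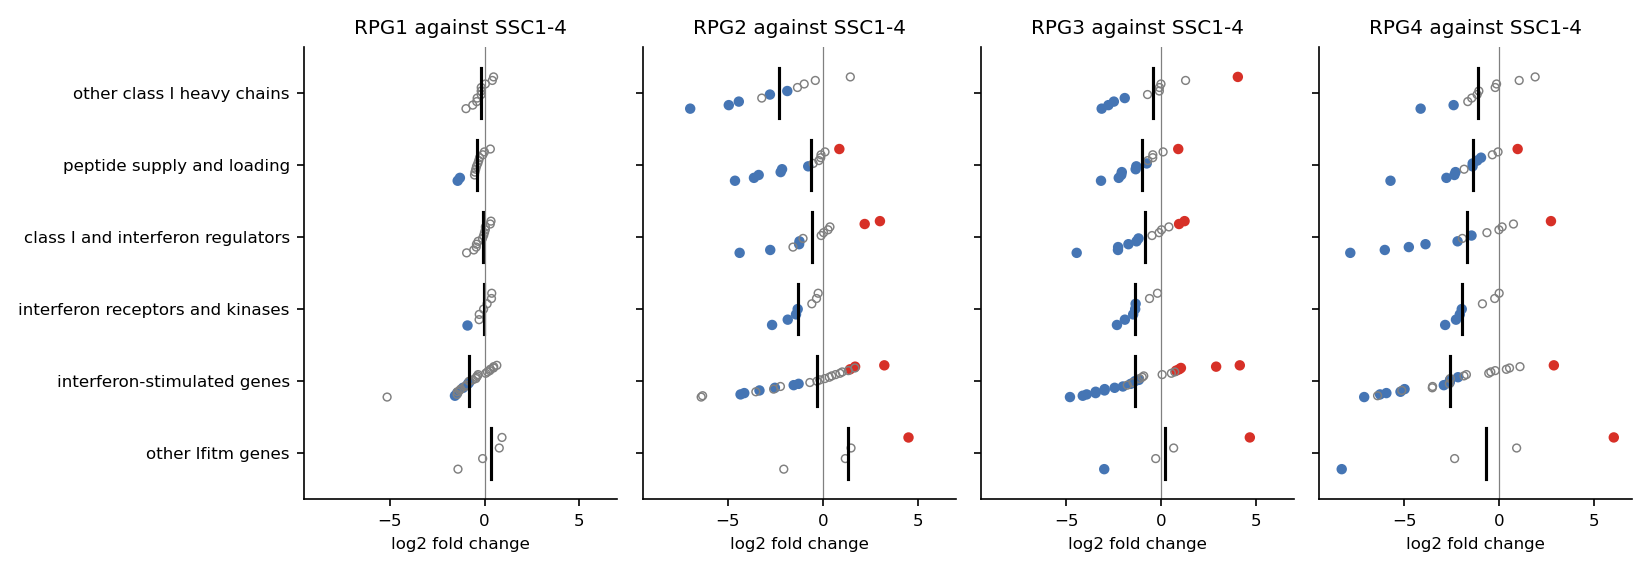
Fitted log2 fold change of each tested gene of the 6 pathway lists in RPG1, RPG2, RPG3 and RPG4 against SSC1-4 (1 point a gene, blue called lower, red called higher, open grey not called, black bar the list median). The list medians in RPG1 lie between -0.81 (interferon-stimulated genes) and 0.33 (other Ifitm genes), and that of receptors and kinases in RPG3 at -1.36.

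In the other classes few list genes were called. The fibroblast class had 6 of 70 higher and 0 lower (5.11% and 0.22% of all genes), among them the interferon-response factor Irf7 (5.65, SE 0.93), Ifit3 (4.05, SE 0.87) and the heavy chain H2-T23 (2.095, SE 0.39). Leaving out the day 8 library gave 3 list genes called and leaving out that of day 27 gave 4, the library as a block gave 0, and the feeder fibroblast marker sums of this class (373 to 2617 CPM) stand beside them. The early-pluripotent class had Ifitm5 higher (3.03, SE 0.85, edgeR adjusted p = 0.0464) and Irf1 lower (-0.83, SE 0.23, edgeR adjusted p = 0.0435), neither of them called without any 1 of its 3 libraries. The meiotic class had Gbp3 higher (1.003, SE 0.28, edgeR adjusted p = 0.0317) and the neural class Nlrc5 (1.52, SE 0.44, edgeR adjusted p = 0.0149), and with the library as a block 0 list genes were called in both. In the neural class 0 were called with at least 10 cells in each sum.

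Within SSC1-4, the day of culture was tested on the members, with the batch as a covariate, in 36 libraries from day 0 to day 27. Of 17882 genes, 157 rose and 461 fell with the day (0.878% and 2.58%, 3.46% in all). With DESeq2's size factors in the same fit, 149 rose and 236 fell. Tap1 was the 1 member called, with a slope of 0.81 (SE 0.22) on the log2 scale per 10 days (edgeR quasi-likelihood test, adjusted p = 0.0292). Its highest library was that of day 27, replicate 5, a sum of 10 cells at 36.9 CPM, and the day 0 library was at 3.82 CPM. Without that day 27 library the slope was 0.62 and no longer called (edgeR adjusted p = 0.130), and in batch B1 alone it was 0.85 (edgeR adjusted p = 0.00683). In cluster SSC1 alone, which keeps the cell state closer, it was 0.52 (edgeR adjusted p = 0.804).

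The other 6 members were not called in this test. H2-D1 had a slope of 0.07 (SE 0.13), B2m 0.02 (SE 0.08) and H2-K1 0.16 (SE 0.08), and the edgeR adjusted p-values were 0.848, 0.933 and 0.300. Ifitm1 (-0.23, SE 0.12), Ifitm2 (-0.42, SE 0.24) and Ifitm3 (-0.70, SE 0.43) had slopes below 0, with edgeR adjusted p-values of 0.375, 0.411 and 0.446. Where each sum had at least 20 cells (30 libraries, chosen after the values were seen), H2-K1 (0.20, edgeR adjusted p = 0.0205) and Ifitm2 (-0.72, edgeR adjusted p = 0.0409) were called as well. The fitted slopes of Ifitm2 and Ifitm3 with day in SSC1-4 thus had the opposite sign to their differences in RPG1 to RPG3. Of 69 list genes, 0 rose and 3 fell, all of peptide supply and loading. With at least 20 cells in each sum, or without days 0, 8 and 10, 1 rose and 6 fell. In 4 other alternatives (B1 alone, no covariate, no filter on low counts, and without day 27, replicate 5) 1 rose and 3 or 4 fell. The 3 were the proteasome activator subunits Psme1 (-0.36, SE 0.08, edgeR adjusted p = 0.00873) and Psme2 (-0.36, SE 0.08, edgeR adjusted p = 0.00923) and tapasin, Tapbp (-0.44, SE 0.13, edgeR adjusted p = 0.0392), of which Tapbp was not called with DESeq2's size factors (edgeR adjusted p = 0.0746). None of the 3 was called in SSC1 alone.

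**Figure D4:**
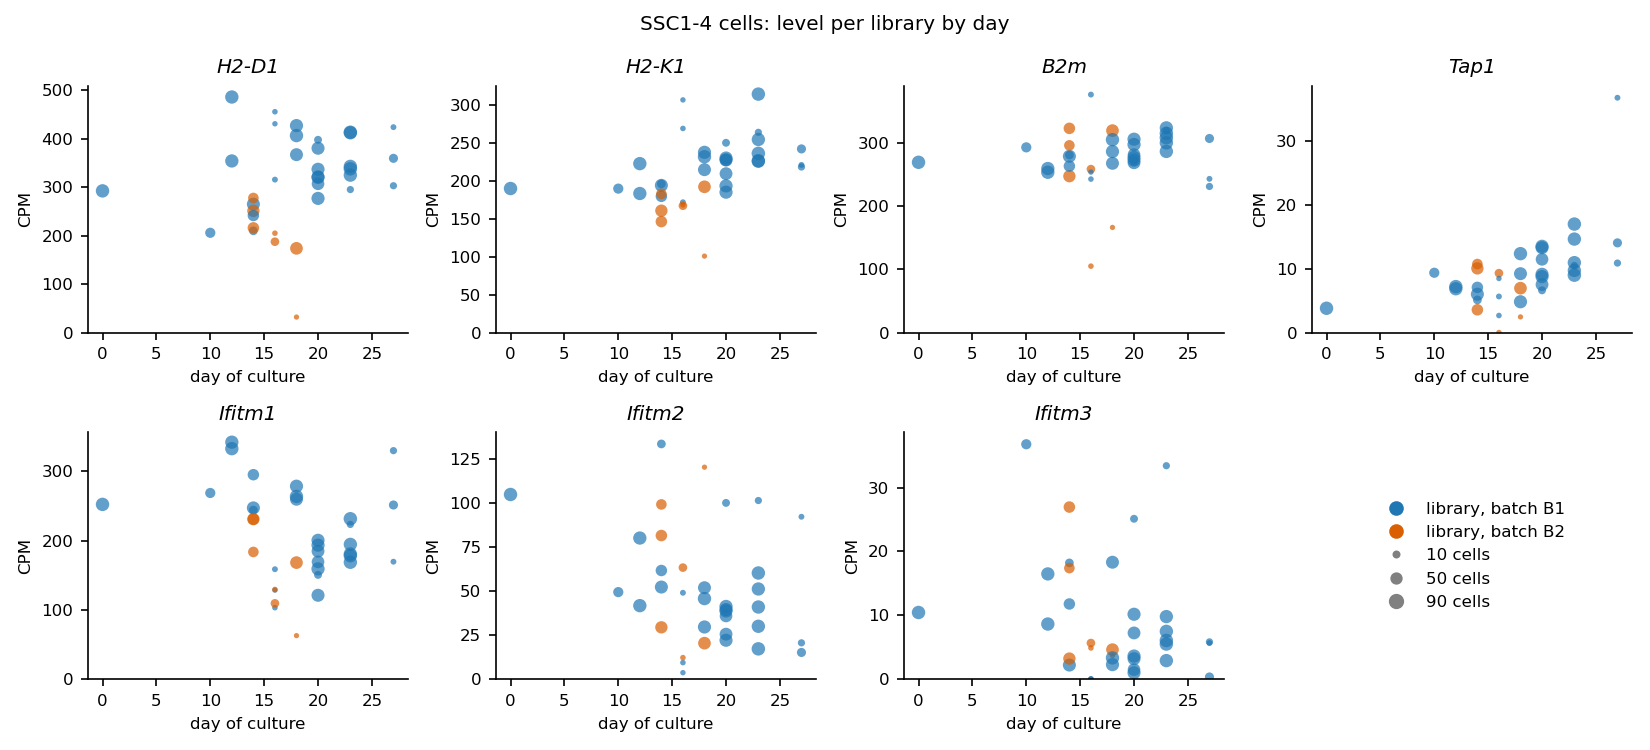
Level in CPM of each member in SSC1-4 sums by day of culture, 1 point a library, coloured by batch, with the point area growing with the number of cells. The Tap1 panel shows the day 27 library of 10 cells at 36.9 CPM above all others, and H2-D1 the day 18 library of 6 cells at 31.997 CPM below all others.

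The level of the members in RPG3 was compared between batches, with 5 libraries of B1 (days 20 and 23) and 3 of B2 (days 12 and 18). Day and batch cannot be told apart in these libraries. H2-D1 was at 54.1, 56.2, 88.2, 63.1 and 116 CPM in B1 and at 21.2, 25.1 and 22.7 CPM in B2, groups that did not overlap. The fitted difference, B2 minus B1, was -1.71 (SE 0.34), which was not called (edgeR quasi-likelihood test, adjusted p = 0.0993) in a comparison that called 2 of 13344 genes (0.015%, 1 higher and 1 lower, 0.00749% each), with 1640 genes at an unadjusted p below 0.05. With no filter on low counts it was called (-1.69, edgeR adjusted p = 0.0115). H2-K1 (-0.64, SE 0.25, edgeR adjusted p = 0.317) and B2m (-0.70, SE 0.37, edgeR adjusted p = 0.450) had differences in the same direction, and their ranges overlapped.

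Ifitm1 went the other way (0.47, SE 0.19, edgeR adjusted p = 0.337), and Ifitm2 (0.04, SE 0.12) and Ifitm3 (-0.11, SE 0.16) had fitted differences near 0, with ranges of 716 to 1031 CPM in B1 and 703 to 1027 CPM in B2 for Ifitm2. RPG1 had the same order for H2-D1, with 308 ± 72.6 CPM in B1 (n = 5) and 120.1 and 127 CPM in B2, and so had SSC1-4, with 345 ± 70.8 CPM in B1 (n = 29) and 192 ± 79.1 CPM in B2 (n = 7), given as values without a test. H2-K1 in SSC1-4 was at 225 ± 34.98 CPM in B1 and 159.9 ± 29.9 CPM in B2. Of 55 list genes tested in the RPG3 comparison, 0 were called, and the list median was 0.00 against -0.04 for all genes.

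In the second experiment, 5C was compared with DMSO within the classes that the study had predicted for each cell. The 5C samples were taken on days 12, 14 and 16 and the DMSO samples on days 20 and 24, with 8 cells of day 0 in DMSO sample 5, so treatment and day cannot be told apart. In SSC1-4, H2-D1 was at 454, 643 and 616 CPM in the 3 DMSO samples and at 46.0, 112 and 199 CPM (lowest, median and highest) in the 8 of 5C. The log2 difference was -2.41 (SE 0.25). H2-K1 was at 179, 237 and 242 CPM in DMSO and 62.8, 107 and 152 CPM in 5C (-1.01, SE 0.25), and B2m at 274, 311 and 342 CPM and 79.9, 112 and 151 CPM (-1.43, SE 0.22). For these 3 genes every 5C sample was below every DMSO sample. Tap1 was at 6.91, 8.07 and 5.82 CPM in DMSO and from 0 to 8.82 CPM in 5C, and the groups overlapped.

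Ifitm2 and Ifitm3 were higher in 5C in the same SSC1-4 cells, and Ifitm1 was lower. Ifitm3 was at 3.31, 4.66 and 0.919 CPM in DMSO and at 24.9, 39.9 and 63.7 CPM in 5C (lowest, median and highest), a log2 difference of 3.76 (SE 0.42). Ifitm2 was at 13.8, 37.6 and 52.4 CPM in DMSO and 59.4, 102 and 154 CPM in 5C (1.57, SE 0.27). Ifitm1 was at 235, 454 and 476 CPM in DMSO and 92.2, 160.3 and 228 CPM in 5C (-1.16, SE 0.19). In these 3 genes too the groups did not overlap.

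In RPG3 (2 DMSO samples, 6 of 5C), H2-D1, B2m and Tap1 were lower in every 5C sample than in DMSO. So were the 3 Ifitm genes, while H2-K1 overlapped. H2-K1 was at 53.97 and 54.7 CPM in DMSO and 11.4, 26.96 and 57.3 CPM in 5C (lowest, median and highest; -0.65, SE 0.32), and Ifitm1 at 1456 and 1423 CPM and 699, 891 and 971 CPM (-0.70, SE 0.23). H2-D1 was at 34.9 and 23.6 CPM in DMSO and 9.08, 14.3 and 20.3 CPM in 5C (-0.89, SE 0.36), and B2m at 59.3 and 38.7 CPM and 7.93, 21.03 and 28.97 CPM (-1.22, SE 0.29). Ifitm3 was at 1501 and 1448 CPM in DMSO and 223, 399.7 and 818 CPM in 5C (-1.75, SE 0.31), and Ifitm2 at 2305 and 2106 CPM and 721, 866 and 1344 CPM (-1.16, SE 0.27). Both groups were far above SSC1-4 for Ifitm2 and Ifitm3. The RPG3 libraries of the original condition, scaled apart from these, had Ifitm1 at 331 to 814, Ifitm2 at 703 to 1031 and Ifitm3 at 422 to 780 CPM. Each DMSO sample was above these ranges, while the 5C samples overlapped them. The reason was not tested. In RPG1 (2 DMSO samples of 6 and 10 cells, 4 of 5C), H2-D1 was at 511 and 302 CPM in DMSO and from 40.7 to 97.0 CPM in 5C (-2.44, SE 0.35), B2m had a difference of -1.01 (SE 0.31) and Ifitm3 of -0.71 (SE 0.43). H2-K1 was at 191 and 196 CPM in DMSO and 88.5 to 108 CPM in 5C, and Ifitm1 at 318 and 483 CPM and 126 to 288 CPM. Ifitm2 was at 311 and 318 CPM in DMSO and 143 to 257 CPM in 5C. In RPG1 the groups overlapped for Tap1 and Ifitm3 only.

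The rule took 6 members in SSC1-4, 3 in RPG1 and 3 in RPG3, beside 12.4%, 7.38% and 14.5% of 13681 genes, and since these samples were part of the choice nothing is read from that. The share of all genes whose 5C and DMSO samples did not overlap was not counted, so nothing is read from the members without overlap either. SSC marker sums in SSC1-4 were 2030 to 2621 CPM in 5C and 2050 to 2328 CPM in DMSO. The feeder fibroblast markers summed to 16.4 to 58.5 CPM and 57.2 to 69.8 CPM, and the immune markers to 1.97 to 17.05 CPM and 12.8 to 56.4 CPM. The 4 markers of primordial germ cells (PGCs) summed to 107 to 237 CPM in 5C and 274 to 655 CPM in DMSO. In RPG3, without overlap, pluripotency markers were at 2295 to 4167 CPM in 5C and 4238 to 4286 CPM in DMSO, epiblast markers at 433 to 784 and 834 to 856 CPM, and SSC markers at 487 to 838 and 417 to 445 CPM. In RPG1 the sums of SSC, PGC, epiblast and immune markers did not overlap either, with epiblast markers at 41.2 to 65.0 CPM in 5C and 101 to 234 CPM in DMSO. The part of all these in the differences was not tested.

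**Figure D5:**
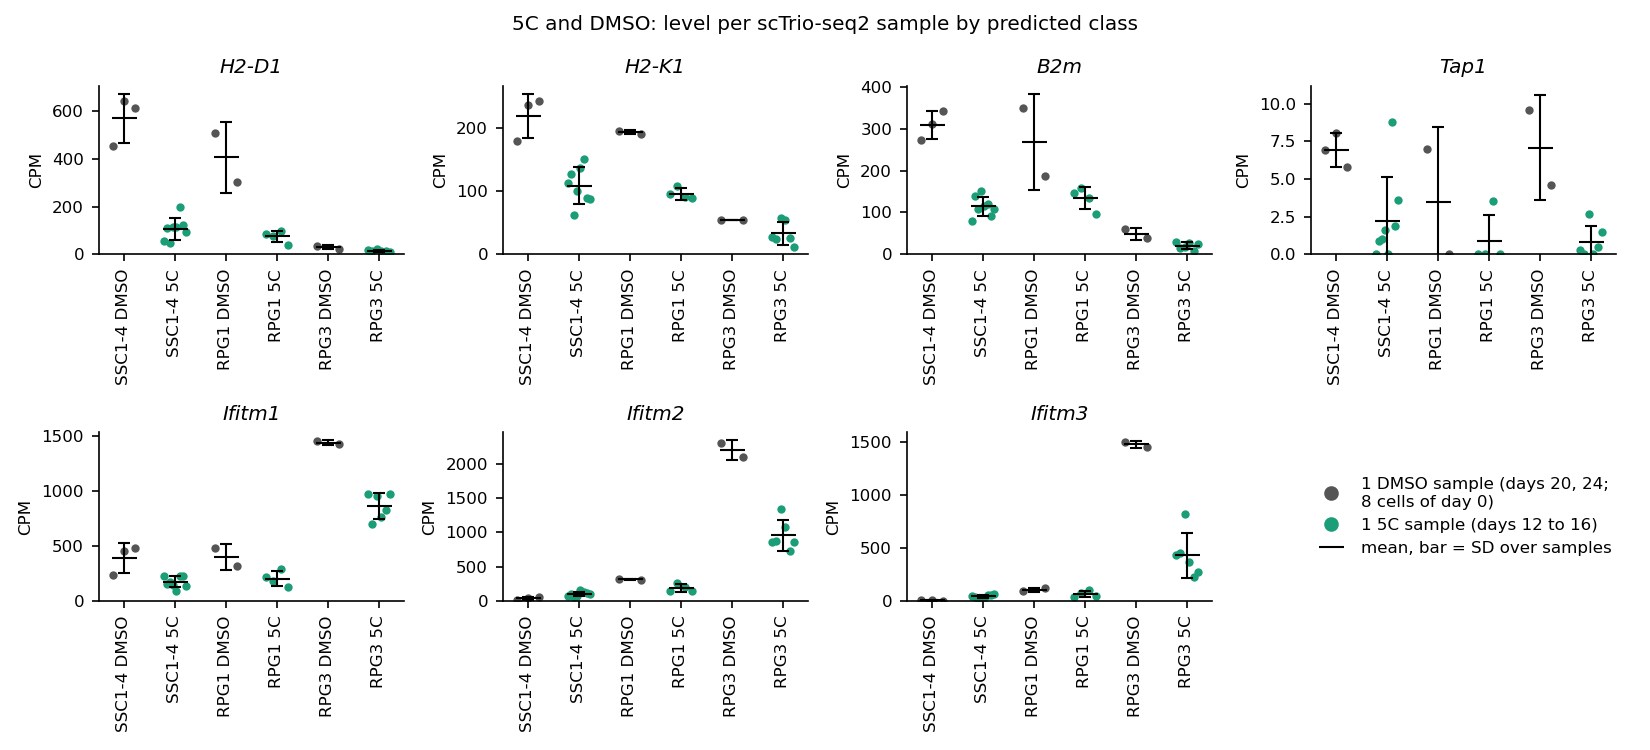
Level in CPM (linear axes from 0) of each member in DMSO and 5C samples by predicted class, 1 point a sample, with the mean and SD. In SSC1-4 the 8 samples of 5C lie below the 3 of DMSO for H2-D1 (46.0 to 199 against 454 to 643 CPM), and in RPG3 the 6 of 5C lie below the 2 of DMSO for Ifitm3 (223 to 818 against 1448 to 1501 CPM).

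The pathway lists were tested in the same fit, with 61 list genes. In SSC1-4, 2 were higher and 13 lower in 5C (6.81% and 5.63% of all genes called higher and lower), with medians of -0.53 for the lists and 0.04 for all genes. Without DMSO sample 4 or sample 5, 8 were lower, and without 5C sample 2 or sample 4, 0 were higher. Of peptide supply and loading, 5 of 12 were lower and 0 higher. These included all 3 immunoproteasome subunits, Psmb8 (-2.68, SE 0.50, edgeR adjusted p = 0.000196), Psmb9 (-2.67, SE 0.38, edgeR adjusted p = 3.02e-06) and Psmb10 (-1.59, SE 0.20, edgeR adjusted p = 3.57e-07), and the activator subunit Psme2 (-0.96, SE 0.16). The heavy chain H2-M3 (-1.57, SE 0.36) and the regulator Irf1 (-0.92, SE 0.21) were lower too. Of 19 interferon-stimulated genes 5 were lower, with Gbp2 (-1.38, SE 0.45) and Gbp3 (-1.52, SE 0.47) among them, and Ddx58 was higher (1.25, SE 0.44, edgeR adjusted p = 0.0491). Nlrc5 was not called.

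In RPG1, 2 list genes were higher and 9 lower (4.16% and 3.22% of all genes), and in RPG3, 7 were higher and 3 lower (8.09% and 6.4%). The 9 lower in RPG1 became 1 without DMSO sample 1, 5 without DMSO sample 2 or 5C sample 8, and 2 with at least 10 cells in each sum. The 7 higher in RPG3 became 4 without DMSO sample 1 and 1 without DMSO sample 2. Psmb9 was lower in 5C in all 3 classes (-2.74, SE 0.57 in RPG1 and -2.64, SE 0.55 in RPG3). The 2 calls of Psmb8 and Psmb9 in RPG1 were lost without DMSO sample 1 (edgeR adjusted p = 0.0600 and 0.422). In RPG3 the membrane protein genes Ly6e (-1.48, SE 0.28) and Bst2 (-1.17, SE 0.34), both interferon-stimulated, were lower beside Ifitm2 and Ifitm3, while Ifi27 (2.99, SE 0.52) and the interferon receptor chain Ifnar2 (3.22, SE 1.02) were higher. Ifi27 was lower in 5C in SSC1-4 (-1.56, SE 0.29) and in RPG1 (-1.62, SE 0.42). The difference between the classes was not tested.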

How the data were processed

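The values deposited by the authors were whole UMI counts of each gene in each well. Per the labels' processing notes, Trim Galore 0.6.4, STAR 2.7.2b, featureCounts 2.0.0 and SAMtools 1.11 were among the tools, on mm10. The paper names UMI-tools, STAR and featureCounts for the RNA counts, and Trim Galore and SAMtools for the bisulfite reads. DNA methylation files were not used here. Cells were kept where the deposited annotation (STRT-seq, 4464 cells) or the study's table of predicted classes (scTrio-seq2, 1089 cells) named a class. Well barcodes (96, 8 of them in every library) mark wells, not cells. No doublet caller was run, since cells were picked singly. Cells of a class were summed within each library, from 5 cells upward. edgeR 4.0.16 (R 4.3.3; TMM, filterByExpr, glmQLFit, glmQLFTest) was fitted over all genes with Benjamini-Hochberg adjustment. Genes were called at adjusted p below 0.05 and, except in the day trend, a fold change past 0.5 in either direction on the natural-log scale. DESeq2 1.42.0 was an alternative. Scripts were tested on simulated data. Thinning used numpy 2.4.6. All 7 members passed the filter on low counts in every fit.

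The members, the 6 gene lists and the rules were chosen with earlier results of these data known. By rule, the 3 called genes of each list with the largest absolute log2 fold change in RPG3, the genes called in the day trend and the 5 genes most like H2-D1, B2m and Ifitm3 were named, except 1 that is not reported here. List genes named beyond these were chosen after their values were seen. Label numbers of 5C and DMSO samples did not pair them (correlations of deviations from -0.01 to 0.05), and libraries that hold both classes were fitted with the library as a block as an alternative.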

Additional observations from a re-analysis of the deposited data

Results flagged for a closer look

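Of 49 groups of 4 to 10 samples, 6 had 1 sample far from the others, and chance alone would flag about 1 group in 20. Tap1 was at 3.52 CPM in RPG1 of 5C sample 6 (30 cells) and at 0 in the other 3 samples, and in SSC1-4 of the same sample (23 cells) at 8.82 CPM, with the next sample at 3.62 CPM. Ifitm1 was at 421 CPM in RPG1 of day 18, replicate 5, with the next library at 221 CPM. H2-K1 was at 355 CPM in the fibroblast sum of day 27, replicate 5 (6 cells), with the next at 201 CPM. In the meiotic class, B2m was at 389.8 CPM in day 16, replicate 3 (next 345 CPM), and Ifitm1 at 94.7 CPM in day 16, replicate 4 (next 223 CPM).

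The 5C against DMSO differences of 2 members had opposite signs in 2 classes, with every 5C sample above every DMSO sample in SSC1-4 and below in RPG3. For Ifitm2 the log2 differences were 1.57 in SSC1-4 and -1.16 in RPG3, and for Ifitm3 3.76 and -1.75. In RPG1, Ifitm2 was also lower in every 5C sample than in DMSO, while the groups overlapped for Ifitm3. The difference between the classes was not tested.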

How the results depend on the processing

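Counts and values that changed side, sign or size under an alternative are given here, and those of the pathway lists mainly beside their results. Of the lists, the meiotic class had 4 genes higher with only 2 classes in the fit, and the early-pluripotent class 2 higher and 6 lower with at least 10 cells in each sum. The numbers of genes called (edgeR) were 757 in RPG1, 6413 in RPG2, 9391 in RPG3, 5161 in RPG4, 1068 in the fibroblast, 248 in the early-pluripotent, 276 in the meiotic and 1475 in the neural class, 618 with day, 2 between batches, and 1702, 1009 and 1982 for 5C in SSC1-4, RPG1 and RPG3. With no filter on low counts, 569 genes were called in the meiotic class, 1173 with day and 92 between batches, and H2-D1 between batches was called (-1.69). With at least 10 cells in each sum, 1192 genes were called in RPG1, 868 in the early-pluripotent class, 699 in the meiotic class and 7 between batches. The early-pluripotent class had 41 with batch as a covariate, 393 with only its cells and SSC1-4 in the fit and 616 by the DESeq2 Wald test, and the neural class 696 with only 2 classes in the fit. With the library as a replicate block, over the libraries that held both classes, the calls were 4 in RPG1, 3102 in RPG2, 3469 in RPG3, 20 in the fibroblast, 40 in the early-pluripotent, 18 in the meiotic and 287 in the neural class. The same libraries without the block (no paired analysis) gave 0, 2319, 2981, 0, 0, 0 and 182, where edgeR had 624, 895, 518 and 1409 genes at an unadjusted p below 0.05 for the counts of 0 in RPG1, the fibroblast, early-pluripotent and meiotic classes. RPG4 shared no library with SSC1-4. The blocked fit reversed Jak2 in RPG3 (0.16, and 0.23 without the block) and H2-D1 in the early-pluripotent class (0.14). The label number as a replicate block for 5C and DMSO, which does not pair the samples, gave 842 genes higher and 684 lower in SSC1-4, 523 and 469 in RPG1 and 978 and 992 in RPG3.

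DESeq2's size factors moved the median of all genes in RPG4 from -0.54 to -0.39 (2781 higher and 2460 lower, against 2347 and 2814), gave 385 genes with day and turned 569 higher and 440 lower into 498 and 543 for 5C in RPG1. In SSC1 alone 5 genes were called with day, and Tap1 had a slope of 0.52. With at least 20 cells in each sum there were 1369 genes with day, and H2-K1 (0.20) and Ifitm2 (-0.72) were called. Leaving out 1 library at a time gave 503 (without day 18, replicate 3) to 700 genes in RPG1, 2920 to 3094 in RPG4, 682 (without day 27, replicate 5) to 1137 in the fibroblast class, 33 (without day 12, replicate 2) to 122 in the early-pluripotent class and 0 to 18 between batches. For 5C it gave 934 (without DMSO sample 5; 972 without sample 4) to 1795 in SSC1-4, 401 (without DMSO sample 2) to 924 in RPG1 and 827 (without DMSO sample 2; 1093 without sample 1) to 2138 in RPG3. The Tap1 slope was 0.62 without day 27, replicate 5, and 1.04 without days 0, 8 and 10.

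As CPM without TMM scaling, B2m in RPG2 was 40.2 and Ifitm3 in RPG4 116. In gPSC p1, H2-D1 was 19.02, H2-K1 24.3, B2m 100.2, Ifitm1 340.1, Ifitm2 796 and Ifitm3 549.9, in gPSC p15 Ifitm2 was 661 and Ifitm3 484, and in ESC the same 6 genes were 74.8, 81.0, 97.1, 426, 623 and 667. Thinned to 20000 UMIs, the shares of cells with H2-D1, Tap1 and Ifitm3 were 95.4, 12.6 and 9.03% in SSC1-4 and 86.7, 10.5 and 61.0% in RPG1. H2-D1, B2m and Tap1 were then in 42.9, 35.9 and 5.79% of RPG3 cells. Depth limits the shares of low-count genes. The causes of these moves were not tested, beyond the fewer libraries or genes that an alternative itself leaves.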

Other observations

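Of the immune marker list, 2 genes with high values were looked at after their values were seen. Cd74, the invariant chain of MHC class II, was at 19.3 ± 16.1 CPM in SSC1-4 of the original condition (SD, n = 36), from 1.34 to 68.0 CPM. In the second experiment its SSC1-4 level was between 10.5 and 56.4 CPM in the 3 DMSO samples and between 0 and 7.64 CPM in the 8 of 5C, groups that did not overlap. Laptm5, a lysosomal membrane protein gene of blood cells, was at 0.183 ± 0.401 CPM in SSC1-4, 65.8 ± 24.7 CPM in RPG3 (n = 8), and at 208, 201 and 294 CPM in gPSC p1, gPSC p15 and ESC, while it was at 0.957 and 1.19 CPM in the 2 RPG4 libraries.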
